A study of Mus musculus with 8 samples.

Results

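The genes described here are the histone H3 lysine 9 (H3K9) methyltransferases *Setdb1*, *Ehmt1*, *Ehmt2*, *Suv39h1* and *Suv39h2*, the cofactors *Trim28* and *Atf7ip*, and the heterochromatin protein 1 (HP1) genes *Cbx5*, *Cbx1* and *Cbx3*. They were taken from the array by accession: each non-control probe whose RefSeq accession belonged to 1 of these 10 genes was kept, which gave 14 of the 55681 distinct probes. Each of the 14 was flagged as well above background in all 8 embryos, and each was among the 29718 probes tested. RNA came from 8 single whole embryos of C57bl6/129 mice, stage matched and collected at embryonic day 8.5 (E8.5), with 1 Agilent array per embryo. Every embryo was heterozygous for the hypomorphic allele *Eed* l7Rn5-1989SB, carried in all cells from the germline, and every mother was wild type. The groups differ in the father: homozygous for the allele in 4 embryos (HOM father) and heterozygous in 4 (HET father), with 2 females and 2 males in each group. EED is a core subunit of PRC2, which methylates H3 lysine 27, and the comparison asks whether paternal PRC2 function leaves a trace in the RNA of genetically matched offspring. The study used fewer males per genotype than it profiled embryos, so some embryos of a group have the same father. The labels do not name him, and p-values treat the 4 embryos of a group as independent. The paper mated homozygous and heterozygous brothers, so fathers of the groups were related in pairs. The labels do not say which embryos belong to which pair, and the main fit ignores it. HOM father replicates 3 and 4 share an identifier number, as do HET father replicates 1 and 2, and what the number stands for is not known here. The 4 arrays of each group lay on a slide of their own, so slide and father cannot be told apart.

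H3K9 methylation marks silent chromatin. SETDB1 is brought to transposable elements and imprinted loci by zinc finger proteins of the KRAB type through the scaffold TRIM28 and is stabilised by ATF7IP. EHMT1 and EHMT2 (GLP and G9a) work as a pair that places the mono- and dimethyl mark in euchromatin and silences germline genes, while SUV39H1 and SUV39H2 place the trimethyl mark at pericentric repeats. The HP1 proteins read the mark and compact chromatin: HP1α is encoded by *Cbx5*, HP1β by *Cbx1* and HP1γ by *Cbx3*.

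Because 6 of the genes moved with father in the test below, the 250 bases before the RefSeq start of each are shown (RefSeq, build GRCm38.p6, 5′ to 3′ on the strand of the gene). Capitals mark exact matches, on either strand, to the motifs searched. In the order of the lines the intervals are chr3:95357203-95357452 (minus strand), chr7:13023902-13024151 (plus strand), chr2:24919610-24919859 (minus strand), chr2:3474987-3475236 (minus strand), chr11:96788885-96789134 (plus strand) and chr15:103239853-103240102 (minus strand).
Setdb1: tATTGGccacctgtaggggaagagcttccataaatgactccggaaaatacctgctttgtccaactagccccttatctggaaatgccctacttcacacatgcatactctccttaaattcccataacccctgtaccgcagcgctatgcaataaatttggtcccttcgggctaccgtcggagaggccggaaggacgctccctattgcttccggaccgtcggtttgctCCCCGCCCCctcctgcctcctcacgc
Trim28: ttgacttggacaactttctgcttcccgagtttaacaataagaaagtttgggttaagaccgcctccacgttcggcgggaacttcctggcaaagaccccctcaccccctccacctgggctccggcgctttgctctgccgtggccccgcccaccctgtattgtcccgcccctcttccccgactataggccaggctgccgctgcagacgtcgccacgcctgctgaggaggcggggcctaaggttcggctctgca
Ehmt1: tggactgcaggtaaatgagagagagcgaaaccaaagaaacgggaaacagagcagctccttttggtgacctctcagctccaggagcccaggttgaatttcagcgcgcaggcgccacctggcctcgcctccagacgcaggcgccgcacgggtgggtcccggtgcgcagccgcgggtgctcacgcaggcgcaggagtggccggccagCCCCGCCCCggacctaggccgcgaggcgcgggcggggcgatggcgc
Suv39h2: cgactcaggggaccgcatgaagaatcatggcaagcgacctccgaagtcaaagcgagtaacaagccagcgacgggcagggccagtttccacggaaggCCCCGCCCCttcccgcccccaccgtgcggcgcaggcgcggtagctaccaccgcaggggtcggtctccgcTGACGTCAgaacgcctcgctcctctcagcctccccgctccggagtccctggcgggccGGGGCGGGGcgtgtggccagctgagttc
Cbx1: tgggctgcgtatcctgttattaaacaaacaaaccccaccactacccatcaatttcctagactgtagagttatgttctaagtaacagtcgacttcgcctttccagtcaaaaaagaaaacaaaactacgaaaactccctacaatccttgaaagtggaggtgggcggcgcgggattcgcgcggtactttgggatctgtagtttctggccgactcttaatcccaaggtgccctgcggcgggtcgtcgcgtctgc
Cbx5: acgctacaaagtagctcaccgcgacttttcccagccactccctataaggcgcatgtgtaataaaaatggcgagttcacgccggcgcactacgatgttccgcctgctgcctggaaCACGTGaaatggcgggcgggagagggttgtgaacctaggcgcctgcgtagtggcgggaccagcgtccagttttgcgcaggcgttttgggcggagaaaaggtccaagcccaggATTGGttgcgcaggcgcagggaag
The search ran over the RefSeq windows of 300 bases, from 250 before to 50 after a start, of which the 10 genes have 14 and all genes 32851. The GC box GGGGCGGGG was in 5 of the 14 windows and in 11.4% of all windows, the CCAAT box CCAAT in 4 and 37.4%, and the E-box CACGTG in 3 and 7.15%. The *Suv39h2* window held the CRE TGACGTCA, found in 1.79% of all windows. TTTGGCGC, an E2F motif in 0.514% of all windows, was in a *Cbx3* window, and the E2F motif TTTCCCGC (1.07%) and the ETS motif CCGGAAGT (3.89%) were in none of the 14. CpG dinucleotides numbered between 8 and 40 per window, with a median of 29, against a median of 7 over all windows. The *Trim28* and *Cbx1* stretches hold none of these letters as whole motifs, and no motif was shared by all genes that moved one way. These are descriptions of the windows, since the arrays did not measure promoters.

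Embryos of HOM fathers had higher signal for *Ehmt1*, *Suv39h2*, *Cbx1* and *Setdb1* and lower signal for *Trim28* and *Cbx5*, on 1 probe each and by 1.15-fold to 1.34-fold. In limma's test with Benjamini-Hochberg adjustment over all tested probes, these 6 of the 14 probes passed an adjusted p below 0.05 without a fold limit (42.9%), 4 higher and 2 lower. Over all tested probes the same rule called 21%, with 12.3% higher and 8.69% lower. No probe of the 10 genes reached the limits of the study's methods, an adjusted p below 0.01 and at least 2-fold, which 1.27% of all tested probes did; 7 of the 14 had an unadjusted p below 0.05. The groups did not overlap for 7 of the 14 probes, 4 with HOM above and 3 below, against 27.1% of all tested probes, of which 14.1% lay above and 13% below. The log2 differences, HOM minus HET, ran from -0.28 to 0.42 around a median of -0.04, and the median over all tested probes was -0.02. Their median size without sign was 0.21, against 0.16 over all tested probes. Leaving out HOM father replicate 3 or HET father replicate 3 lowered the count from 6 to 3.

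**Figure D1:**
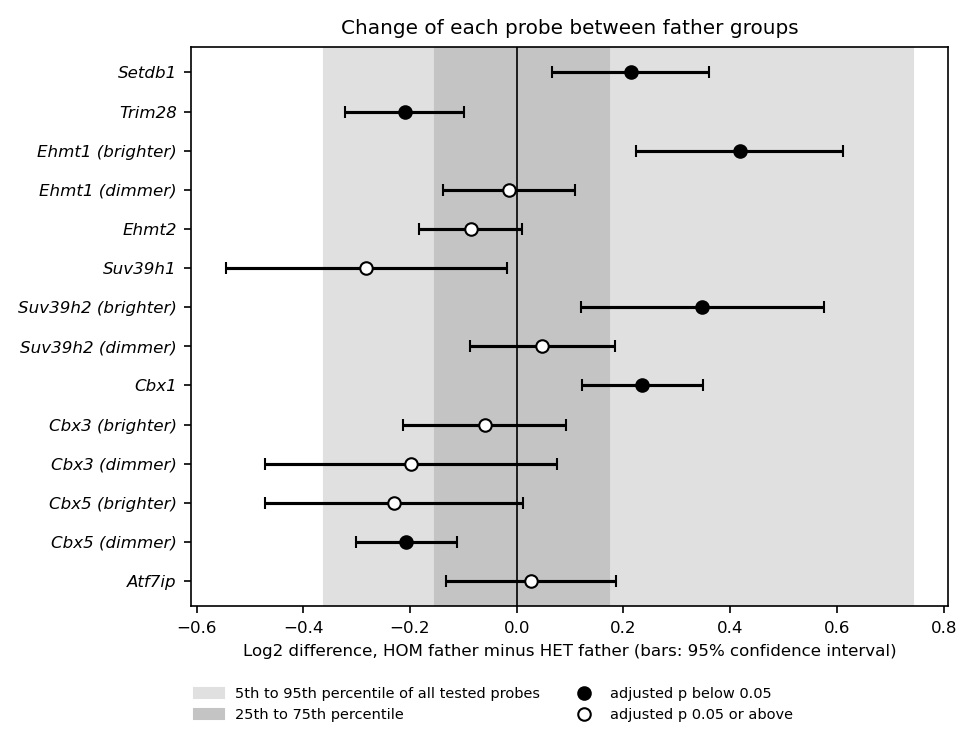
Log2 difference between father groups (x axis, HOM father minus HET father) for each of the 14 probes (rows), with 95% confidence intervals as bars; filled circles have an adjusted p below 0.05, and the grey bands span the 5th to 95th and 25th to 75th percentiles of all tested probes. All 14 differences lie inside the wider band, which runs from -0.36 to 0.74, and the 6 filled circles lie outside the narrower one.

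Whole-embryo RNA holds many cell types, and fewer cells of a type cannot be told apart from less RNA per cell. Markers of neural plate, somite, heart and gut or yolk sac endoderm and of germ cells had overlapping summed levels in the groups. In each of the first 4 of these lists, with 4, 6, 3 and 5 tested probes, 1 probe was called by limma. Over all tested probes 21% were called. A *Sox1* probe (neural) was higher with HOM fathers by 0.42 on the log2 scale (adjusted p = 0.0209), and *Tbx6* (somite), *Myl7* (heart) and *Apoa1* (endoderm) had log2 differences of -0.32, -0.25 and -0.41 (adjusted p = 0.0359, 0.0408 and 0.0139). The groups did not overlap at these 4 probes, nor at 27.1% of all tested probes. The other probes of *Sox1* and *Tbx6* were not called (-0.16 and -0.17). The summed linear level of 5 probes for the decidual genes *Prl8a2*, *Prl6a1* and *Prl3c1*, in multiples of the array's 75th percentile, was 1.30, 17.8, 22.0 and 2.59 in HOM father replicates 1 to 4, and 3.65, 3.74, 0.426 and 0.152 in the HET father embryos, most of it from *Prl8a2* in 7 of the 8 embryos. Of the 2 decidual probes tested 1 was called, a *Prl6a1* probe upward, with overlapping groups. It was well above background on 4 HOM but only 1 HET father arrays. It thus entered the test through the group where it is higher, and no weight is put on that call. The other *Prl6a1* probe and both *Prl3c1* probes did not stand above background in any embryo. For trophoblast (8 probes of *Gcm1*, *Plac1*, *Prl3d1* and *Tpbpa*) the sums ran from 15.8 to 26.8 in HOM and from 27.0 to 48.5 in HET father embryos, most of each sum from *Gcm1*. Of 6 tested probes 1 was called, a *Gcm1* probe with a log2 difference of -1.07, and *Tpbpa* did not stand above background in any embryo. The list did not move as one, as both *Prl3d1* probes had log2 differences of the other sign, 1.88 and 1.07, with overlapping groups and no call (limma's adjusted p = 0.208 and 0.368). For the embryonic globin genes of primitive erythroid cells, the log2 signal of *Hba-x* ran from 6.93 to 7.38 in HOM and from 7.50 to 7.63 in HET father embryos (log2 difference -0.33; limma's adjusted p = 0.0575), and that of *Hbb-bh1* from 8.22 to 8.52 and from 8.46 to 8.67 (log2 difference -0.22; limma's adjusted p = 0.0998). Summed over the erythroid markers, the linear level ran from 420 to 529 in HOM and from 544 to 602 in HET father embryos. The trophoblast and erythroid sums and the *Hba-x* signal thus did not overlap between the groups. The part of these markers and of those called above in the results was not tested. Without HOM father replicates 2 and 3, the embryos with the most decidual signal, 0 of the 14 probes were called by limma and 6 had an unadjusted p below 0.05, with a lowest adjusted p of 0.0576, a setting chosen after the data were seen. That fit rests on 2 HOM father embryos, and the 6 differences kept their direction in it.

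The *Setdb1* probe (A_55_P1965635; gene on chromosome 3) had a normalised log2 signal, relative to the array's 75th percentile, of 1.79, 1.60, 1.66 and 1.73 in the HOM father embryos and 1.59, 1.48, 1.46 and 1.39 in the HET father embryos. Every HOM father embryo was above every HET father embryo, though the nearest pair almost touched. The means were 1.70 ± 0.08 (SD, n = 4) and 1.48 ± 0.08 (SD, n = 4), a log2 difference of 0.21 (SE 0.06) or 1.16-fold, with limma's adjusted p = 0.0491. This call lies at the threshold: it was lost without any one of 6 of the 8 embryos (HOM father replicates 1, 3 and 4 and HET father replicates 2, 3 and 4), with adjusted p up to 0.117, and with normexp background correction, run on the median signals in place of the processed ones, the difference was 0.10 (adjusted p = 0.177). The call was also lost with the identifier number as a random block (limma's adjusted p = 0.0676).

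*Trim28* (A_51_P323299; chromosome 7) moved the other way. Its signal was 5.08, 5.17, 5.13 and 5.15 in HOM father embryos and 5.30, 5.33, 5.43 and 5.32 in HET father embryos, so that all 4 HOM values lay below all 4 HET values. The log2 difference was -0.21 (SE 0.05; 1.16-fold lower; limma's adjusted p = 0.0199). It lost its call without HOM father replicate 1, HOM father replicate 3 or HET father replicate 3, with adjusted p between 0.0505 and 0.0553. The difference was -0.13 after quantile normalisation (adjusted p = 0.0736) and -0.04 after normexp (adjusted p = 0.605).

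*Atf7ip* (A_52_P653966; chromosome 6) was at 2.20, 2.18, 2.13 and 2.21 in HOM father embryos and at 2.05, 2.31, 2.05 and 2.21 in HET father embryos. The HOM values fell within the HET range, and the log2 difference was 0.03 with a 95% confidence interval of -0.13 to 0.19 (limma's adjusted p = 0.822). Within each embryo, the *Setdb1* probe minus the *Trim28* probe gives a quantity that no scaling of whole arrays by a constant can change. It was -3.29, -3.57, -3.47 and -3.42 with HOM fathers and -3.71, -3.84, -3.97 and -3.93 with HET fathers, without overlap, and its group means differed by 0.42 on the log2 scale. *Setdb1* minus *Atf7ip* differed by 0.19 with overlapping groups.

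**Figure D2:**
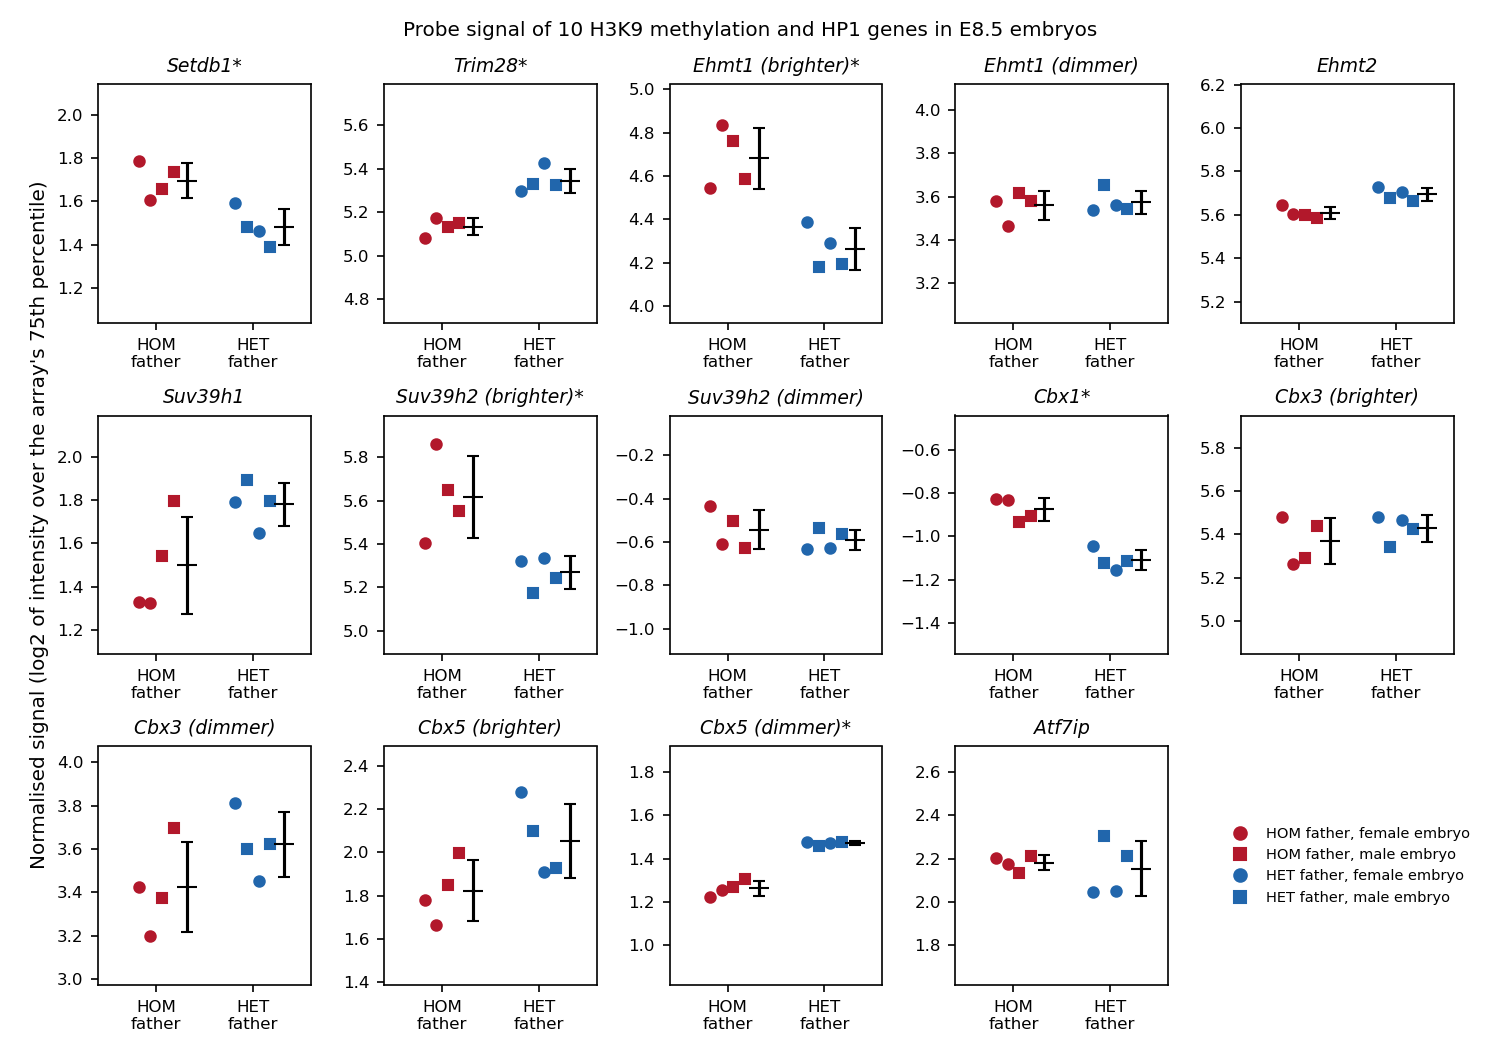
Normalised log2 signal of each probe (y axis; all panels span the same log2 range, centred on their own probe) in HOM father (red) and HET father (blue) embryos, circles for females and squares for males, with the group mean ± SD in black; brighter and dimmer name the 2 probes of a gene, and an asterisk marks an adjusted p below 0.05. The groups separate in *Setdb1*, *Trim28*, *Ehmt1* (brighter), *Ehmt2*, *Suv39h2* (brighter), *Cbx1* and *Cbx5* (dimmer).

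*Ehmt1* (chromosome 2) gave the largest difference of the 14 probes, on 1 of its 2 probes. The brighter probe (A_55_P2045163) was at 4.54, 4.84, 4.76 and 4.58 in HOM father embryos and at 4.39, 4.18, 4.29 and 4.19 in HET father embryos, with no overlap. Its log2 difference was 0.42 (SE 0.08), 1.34-fold, with limma's adjusted p = 0.0118, and the call held whichever single embryo was left out. The dimmer probe (A_55_P2149440) ranged from 3.46 to 3.62 and from 3.54 to 3.65, a difference of -0.01 with a 95% confidence interval of -0.14 to 0.11 (limma's adjusted p = 0.877). The intervals of the 2 probes do not meet. The difference between them within each embryo was 0.96 to 1.37 with HOM fathers and 0.53 to 0.85 with HET fathers, also without overlap. Both probes are annotated to the same RefSeq transcript, and which transcripts each one reads was not examined here.

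*Ehmt2* (A_55_P2001143; chromosome 17), which encodes the partner methyltransferase, was at 5.65, 5.60, 5.60 and 5.59 in HOM father embryos and at 5.73, 5.68, 5.71 and 5.67 in HET father embryos. The groups did not overlap, the HOM values being the lower ones, yet the log2 difference of -0.09 (SE 0.04; 95% confidence interval -0.18 to 0.01) did not pass the test (limma's adjusted p = 0.181). *Ehmt1* (brighter probe) minus *Ehmt2* lay between -1.10 and -0.77 with HOM fathers and between -1.50 and -1.34 with HET fathers, a shift of 0.50 on the log2 scale.

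Of the pericentric methyltransferase genes, *Suv39h2* was called on 1 of its probes and *Suv39h1* was not. The brighter *Suv39h2* probe (A_55_P2072403; chromosome 2) was at 5.40, 5.86, 5.65 and 5.55 with HOM fathers and at 5.32, 5.17, 5.34 and 5.24 with HET fathers. HOM father replicate 2 was the highest, and the lowest HOM embryo lay just above the highest HET embryo. The log2 difference was 0.35 (SE 0.10), 1.27-fold, with limma's adjusted p = 0.0410. The call was kept only without HOM father replicate 1 or 2 and lost without any other single embryo, with adjusted p up to 0.0982. It was also lost with the identifier number as a random block (limma's adjusted p = 0.0637). The dimmer probe (A_52_P16931) ranged from -0.63 to -0.43 and from -0.63 to -0.54 and had a difference of 0.05 (95% confidence interval -0.09 to 0.18; limma's adjusted p = 0.602).

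*Suv39h1* (A_55_P2071486), which lies on the X chromosome, was at 1.33, 1.33, 1.54 and 1.80 in HOM father embryos and at 1.79, 1.89, 1.65 and 1.79 in HET father embryos. HOM father replicate 4 overlapped the HET group, and the other 3 HOM embryos were below it. The log2 difference was -0.28 (SE 0.11; 95% confidence interval -0.55 to -0.02; limma's adjusted p = 0.120), and without HOM father replicate 4 it was -0.38 (adjusted p = 0.0304). *Suv39h2* (brighter probe) minus *Suv39h1* was 4.08, 4.53, 4.11 and 3.76 with HOM fathers and 3.53, 3.28, 3.69 and 3.45 with HET fathers. These groups did not overlap and their means differed by 0.63.

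Of the HP1 genes, *Cbx1* (A_55_P2051766; chromosome 11) was higher with HOM fathers, at -0.83, -0.83, -0.93 and -0.91, than with HET fathers, at -1.05, -1.13, -1.16 and -1.12. The log2 difference was 0.24 (SE 0.05), 1.18-fold, with limma's adjusted p = 0.0136. *Cbx5* (chromosome 15) was lower: its dimmer probe (A_55_P2090179) was at 1.22, 1.26, 1.27 and 1.31 with HOM fathers and at 1.48, 1.46, 1.47 and 1.48 with HET fathers. The difference was -0.21 (SE 0.04; 1.15-fold lower; limma's adjusted p = 0.0110). The calls of *Cbx1* and of this *Cbx5* probe held whichever single embryo was left out.

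The brighter *Cbx5* probe (A_55_P2360661) had a like difference of -0.23 but a wider spread, from 1.66 to 2.00 with HOM fathers and from 1.91 to 2.28 with HET fathers (95% confidence interval -0.47 to 0.01; limma's adjusted p = 0.162). *Cbx3* (chromosome 6) passed on neither probe. Its brighter probe (A_55_P1969072) differed by -0.06 (95% confidence interval -0.21 to 0.09; limma's adjusted p = 0.562) and its dimmer probe (A_55_P2017038) by -0.20 (95% confidence interval -0.47 to 0.08; limma's adjusted p = 0.276). *Cbx1* minus *Cbx5*, with the brighter *Cbx5* probe, was -2.61, -2.50, -2.79 and -2.90 with HOM fathers and -3.32, -3.22, -3.06 and -3.04 with HET fathers, a shift of 0.46 without overlap. *Cbx1* minus *Cbx3* shifted by 0.30 without overlap, and *Cbx3* minus *Cbx5* by 0.17 with overlapping groups.

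**Figure D3:**
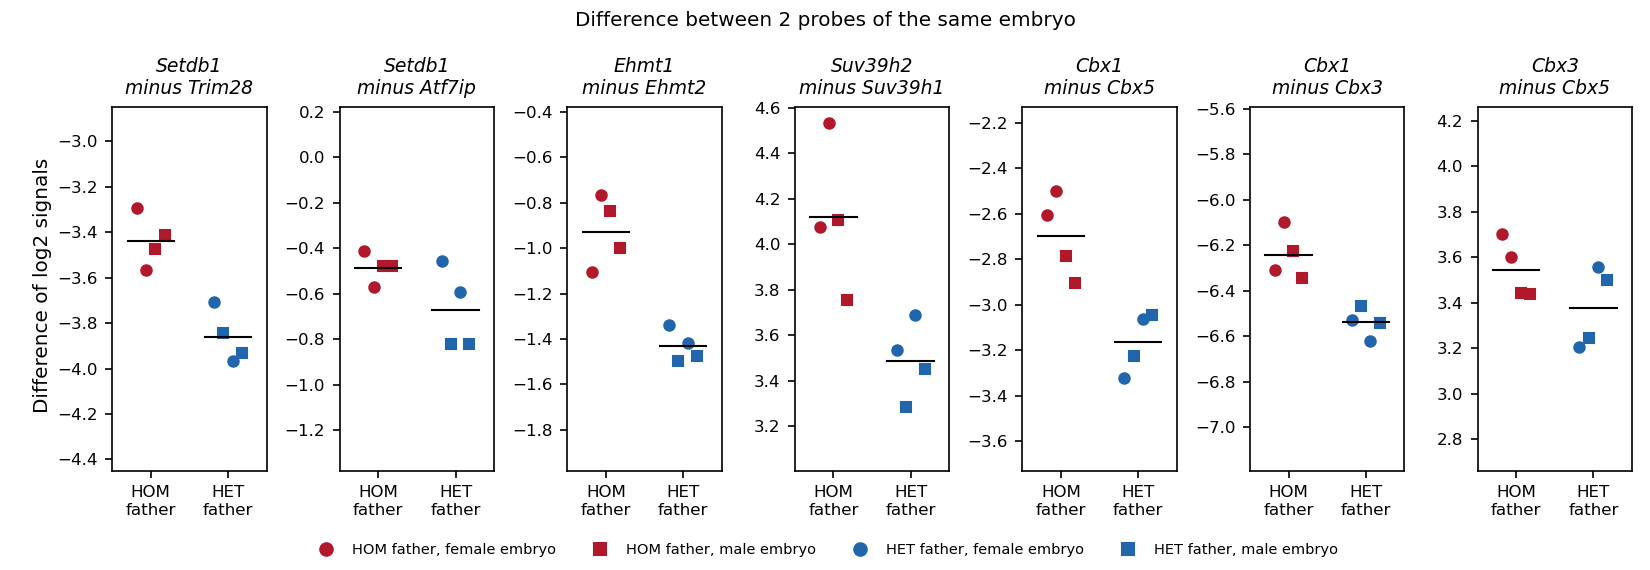
Difference between the log2 signals of 2 probes on the same array (y axis, equal span in all panels) for 7 gene pairs in HOM father (red) and HET father (blue) embryos, circles for females and squares for males, with group means as lines. The groups do not overlap in 5 of the 7 pairs, and in each of the 7 the HOM father mean is the higher.

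The order of subtraction in these pairs was chosen with the direction of the single probes known, so the common direction is no result, and the differences carry no test. They show the sizes without the choice of a constant per array, but they can change with quantile normalisation or background correction. The choice of constant mattered for the single probes. With each array scaled to its median instead of its 75th percentile, the median of all tested probes was -0.21. Of all tested probes 42.7% were called, 2338 higher and 10351 lower, where the 75th percentile gave 3660 and 2583. Of the 14 probes, 8 were then called, 0 higher and 8 lower. *Setdb1*, *Ehmt1* (brighter), *Suv39h2* (brighter) and *Cbx1* stayed above 0 at 0.02, 0.23, 0.16 and 0.04 but were not called, and *Trim28* and *Cbx5* (dimmer) fell further, to -0.40 each. *Ehmt1* (dimmer), *Ehmt2*, *Suv39h1*, *Cbx5* (brighter) and both *Cbx3* probes were also called lower under this scaling. Relative to the median of all tested probes, the changes must be the same under both, which differ only by a constant per array. They were 0.24 for *Setdb1*, 0.44 for *Ehmt1*, 0.37 for *Suv39h2*, 0.26 for *Cbx1*, -0.19 for *Trim28* and -0.18 for *Cbx5* (dimmer). In the same order they were 0.28, 0.52, 0.45, 0.22, -0.10 and -0.15 after quantile normalisation. After normexp they were 0.13, 0.35, 0.30, 0.26, -0.01 and -0.19.

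**Figure D4:**
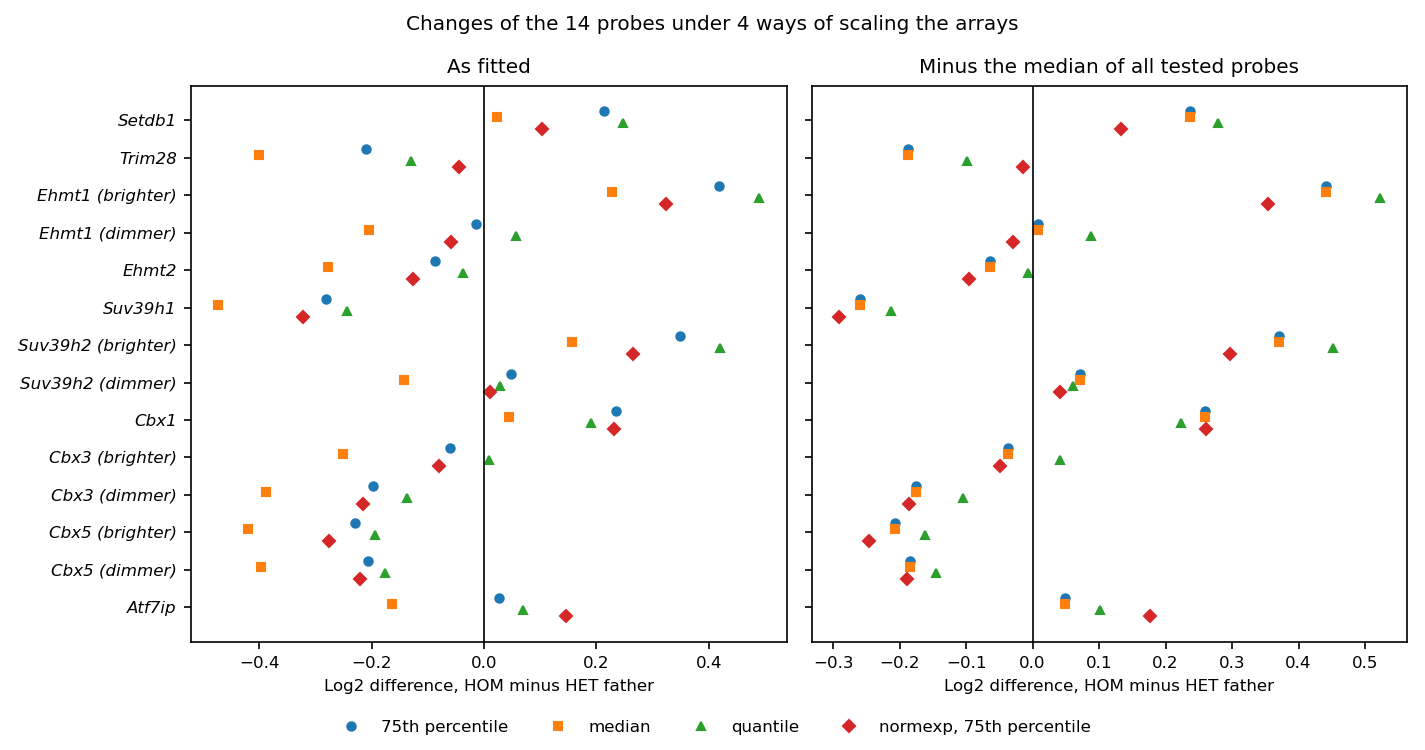
Log2 difference between father groups (x axis) for each of the 14 probes (rows) under 4 ways of scaling the arrays (marks of a probe are spread vertically for legibility), as fitted (left) and after subtracting the median of all tested probes under the same scaling (right). Median scaling moves all points left by the same amount, and in the right panel its points line up with those of the 75th percentile.

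The list of other genes that write, read or remove H3K9 methylation held 40 genes with probes, 61 probes, of which 56 were tested. Of these 12 passed an adjusted p below 0.05 in limma (21.4%, against 21% of all tested probes), 3 higher and 9 lower, with 0 at the stricter limits, and their median log2 difference was -0.06. *Setdb2* had no probe matched by accession. Without HOM father replicate 3, HET father replicate 3 or HET father replicate 4 the count was 7, 6 and 6.

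Among 13 tested probes of other writers and cofactors, 1 was higher and 3 lower. *Uhrf1*, which links H3K9 methylation to the maintenance of DNA methylation, was lower on 1 of its probes at 4.98 to 5.11 against 5.21 to 5.39, a log2 difference of -0.22 (SE 0.06; limma's adjusted p = 0.0343), and close to 0 on the other. *Prdm2*, a methyltransferase gene, was called lower on 1 probe at -0.22 (limma's adjusted p = 0.0365). Its other probe was called higher at 0.60 (limma's adjusted p = 0.0339) but was well above background on only 3 HOM and 1 HET father arrays. It thus entered the test mostly through the group where it is higher, and no weight is put on that call. The difference of that probe was 0.38 after quantile normalisation (limma's adjusted p = 0.0926) and 0.15 after normexp (limma's adjusted p = 0.259). *Chaf1b*, a subunit of the chromatin assembly factor that binds HP1, was the remaining lower probe at -0.20. The lower calls of *Uhrf1* and *Prdm2* were each lost in 6 of the 8 fits that left out a single embryo.

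Readers and heterochromatin proteins gave 2 higher and 3 lower of 23 tested probes. *Morc2a*, an ATPase that works with the HUSH silencing complex, was at 2.30, 2.35, 2.32 and 2.33 with HOM fathers and 2.58, 2.67, 2.70 and 2.58 with HET fathers. Its log2 difference of -0.31 (SE 0.05) had the lowest adjusted p of the list, 0.0038 in limma, and passed under every alternative tried. *Kmt5c*, which methylates H4 lysine 20 downstream of HP1, differed by -0.27 (limma's adjusted p = 0.0177) and *Daxx*, a histone chaperone, by -0.21. *Pphln1*, a HUSH subunit, rose by 0.23 (limma's adjusted p = 0.0104) and *Adnp*, which binds HP1, by 0.24 (limma's adjusted p = 0.0271), each on 1 of its probes. Their other probes were at 0.15 (*Pphln1*) and 0.14 (*Adnp*) and did not pass. The *Adnp* call was lost in 5 of the 8 fits that left out a single embryo.

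Of 7 tested probes of KRAB zinc finger genes, whose proteins recruit TRIM28, 2 were lower and none higher, with a median of -0.22. *Zfp568*, which acts in early embryos, differed by -0.39 (limma's adjusted p = 0.0400) with overlapping groups. Its call was lost in 6 of the 8 fits that left out a single embryo (limma's adjusted p up to 0.0952). *Zfp57*, which protects imprints, differed by -0.33 on 1 probe (limma's adjusted p = 0.0140) and by 0.22 on the other (limma's adjusted p = 0.0709), so the gene has no single direction here. Among 13 tested probes of H3K9 demethylases, *Kdm4b* was the lone call, at 2.73 to 2.90 with HOM fathers against 3.05 to 3.26 with HET fathers, a log2 difference of -0.33 (SE 0.06; limma's adjusted p = 0.0102).

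**Figure D5:**
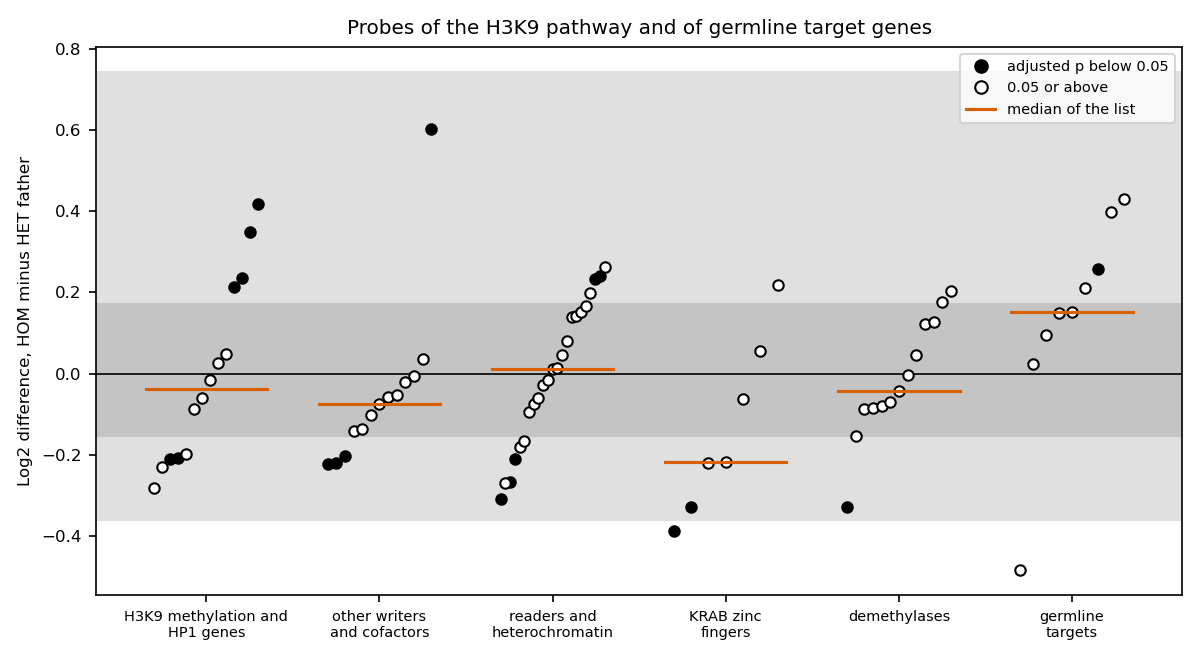
Log2 difference between father groups (y axis) of each tested probe, sorted within its list (x axis); filled circles have an adjusted p below 0.05, orange lines are list medians, and grey bands span the 5th to 95th and 25th to 75th percentiles of all tested probes. The list medians lie between -0.22 for the KRAB zinc finger genes and 0.15 for the germline targets.

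Germline genes are a known target of EHMT1 and EHMT2 and of other H3K9 methylation outside germ cells. Of 13 such probes, 9 were tested and 1 passed (11.1%, against 21% of all tested probes), so the list was not called more often than the array as a whole. The probe was *Taf7l*, a germ cell TFIID subunit, at 1.38, 1.23, 1.25 and 1.43 with HOM fathers and 1.17, 1.03, 0.96 and 1.09 with HET fathers, a log2 difference of 0.26 (SE 0.07; limma's adjusted p = 0.0369). It passed in 2 of the 8 fits that left out a single embryo. *Tdrd1*, *Tex101*, *Dazl* and *Asz1* were not tested. The median over the 9 tested probes was 0.15, and 8 of the 9 did not pass. *Ddx4*, which also marks germ cells, was at -1.52 to -1.04 with HOM fathers and -2.45 to -1.10 with HET fathers.

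By sex, 0 of the 14 probes passed in limma with father as a covariate, 1 had an unadjusted p below 0.05, and of all tested probes 0.121% passed and 5.22% had such an unadjusted p. That 1 probe was X-linked *Suv39h1*, with means of 1.52 in females and 1.76 in males (log2 difference -0.23, SE 0.08, unadjusted p = 0.0273, adjusted p = 0.914, both in limma). In HOM father embryos the females were at 1.33 and 1.33 and the males at 1.54 and 1.80, and in HET father embryos the females were at 1.79 and 1.65 and the males at 1.89 and 1.79, so that the females were not above the males in either group. For the interaction between father and sex, 0 of the 14 passed in limma and 0 had an unadjusted p below 0.05 (lowest unadjusted p = 0.0676), where 0.0639% and 4.52% of all tested probes did. *Xist*, *Ddx3y* and *Eif2s3y* matched the labelled sex of all 8 embryos. The *Eed* probe differed by 0.01 between the groups (limma's adjusted p = 0.870), and since the allele is a point mutation this level does not check the genotypes.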

How the data were processed

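Whole-embryo RNA (0.2 µg) was labelled with Cy3 and hybridised to 8 arrays, with groups, replicate numbers and sexes from the labels. The authors deposited scanner tables made with Agilent Feature Extraction 11.0.1.1, whose processed intensity is background-subtracted and spatially detrended, not scaled between arrays. The deposited flags (other values, 0 or 1) mark spots well above background and outliers. The number of arrays limits the precision, and 51.9% to 60.8% of spots were well above background.

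Outlier spots were left out, log2 intensities were reduced by the array's 75th percentile, and spots of a probe were averaged. The test took probes that, on at least 4 arrays, carried the above-background flag and lay no lower than the 20th percentile (53.4% of probes). Accessions were named through a RefSeq gene table (GRCm38.p6), which matched 27235 probes. limma 3.58.1 (R 4.3.3; lmFit, eBayes, two-sided, Benjamini-Hochberg) compared fathers without covariates, sexes with father, and their interaction. The fits were tested on simulated data. Pairing by replicate number was checked from deviations from group means. Same-numbered embryos correlated at 0.189, -0.0861, -0.132 and 0.146. These values show no common pairing by number, but they cannot exclude that some same-numbered embryos had brothers as fathers. The result for 1 marker gene is not reported here. Array signals correlated at 0.988 to 0.993 within groups and 0.982 to 0.992 between them.

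The members, gene lists, tests and naming rule were chosen with earlier results of these data known. All probes of the 10 genes are named, and of each other list the calls past the stricter limits and up to 2 falls and 2 rises with the largest changes among those at adjusted p below 0.05. *Chaf1b*, *Daxx*, *Ddx4*, untested germline probes and probes that disagree were named after their values were seen. A gene's value in pairs is its probe with the highest mean. Alternatives were median scaling, quantile normalisation, normexp (offset 50, on median signals because the tables used here hold no mean signals), the authors' series table of the same intensities (largest difference 0.5%), other filters, variance models and blocks, sex as a covariate and each embryo left out.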

Additional observations from a re-analysis of the deposited data

How the results depend on the processing

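Of the 14 H3K9 methylation and HP1 probes, 6 were called, and 3 to 6 when single embryos were left out. The count was 3 with normexp, 1 without a filter on dim probes (6 at an unadjusted p below 0.05), 8 under median scaling, 5 after quantile normalisation, 4 with the identifier number as a random block (consensus correlation 0.302) and 4 with sex as a covariate. With the replicate number as a block it was 0 in limma (6 at an unadjusted p below 0.05, lowest adjusted p 0.0547). The pairing check neither shows nor excludes the pairing that this block assumes. Without HOM father replicates 2 and 3 it was 0. The series table, the stricter filter and the trended variance model gave 6. No alternative brought a probe past 2-fold or gave a call by sex or interaction among the 14.

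The other H3K9 pathway probes gave 12 calls, 6 to 9 without single embryos, 25 under median scaling, 1 without the filter, 2 with the replicate block and 4 without HOM father replicates 2 and 3. The 1 germline call (*Taf7l*) became 0 under median scaling, normexp, no filter, the identifier block and sex as a covariate, and ranged from 0 to 1 without single embryos. With the replicate block the 1 call was *Slc25a31* and without HET father replicate 4 it was *Stk31*, and *Taf7l* itself was not called in either (limma's adjusted p = 0.0549 and 0.0732). Uncalled values near 0 changed sign: *Ehmt1* (dimmer) to 0.0567 after quantile normalisation, 0.00578 without HOM father replicates 2 and 3 and -0.0334 to 0.0178 without single embryos, *Suv39h2* (dimmer) to -0.14 and *Atf7ip* to -0.16 under median scaling, *Atf7ip* to between -0.00973 and 0.0766 without single embryos, and *Cbx3* (brighter) to 0.00935 after quantile normalisation and 0.0307 without HOM father replicates 2 and 3. Median scaling lowers all probes by the same amount, which carried these 2 uncalled values below 0. The cause of the other sign changes was not tested.

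Slide and father cannot be told apart, some embryos of a group have the same father, and probes of *Ehmt1*, *Prdm2* and *Zfp57* disagree. Only the brighter *Suv39h2* probe was called, with a log2 difference of 0.35 against 0.05 for the dimmer probe. Their confidence intervals, 0.12 to 0.57 and -0.09 to 0.18, overlap. No spot was saturated. In 50 groups of 4 values examined (14 probes and the named pathway probes), no embryo stood apart from its group by Dixon's ratio, where chance would give 2.5.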
